A study of Homo sapiens with 16 samples.

Results

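GAS1, TNS3, CACNA2D3, CYTIP and CMAHP are 5 of the 11963 genes measured. They were chosen by 2 measured values, a high level in untreated anaplastic large cell lymphoma (ALCL) lines and a lower level after treatment. Those 2 values are therefore described below and not tested. The levels come from Affymetrix HG-U133A arrays, where a probe set of short oligonucleotides stands for a transcript, and they are log2 RMA values, so a difference of 1 is a 2-fold difference in signal.

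Per its title, the study dealt with an ALCL-like state of T-cells after DNA demethylation and histone acetylation. It used 16 arrays in 4 groups of 4, with 1 array for each line and condition. The groups were treated and untreated Karpas 299, SU-DHL-1, JB6 and FE-PD, which are labelled ALCL cell lines, and treated and untreated Molt-3, Molt-4, CCRF-CEM and Jurkat, which are labelled T-cell lymphoma/leukemia cell lines. Treated cells received 5-aza-dC (5-aza-2'-deoxycytidine, an inhibitor of DNA methyltransferases) at 1 µM for 6 days, and TSA (trichostatin A, an inhibitor of histone deacetylases) at 625 nM for the last 24 h. No array had either agent alone, so the 2 agents cannot be told apart, and no genotype or modified allele was given for any line. Each line is a single established culture, so n = 4 counts lines, not donors. Whether any of the lines share a donor was not examined, and the tests treat the lines as independent.

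The 5 genes belong to different pathways. GAS1 encodes a membrane-anchored protein that binds Hedgehog ligands as a co-receptor and halts cell growth when overproduced. TNS3 encodes a tensin, a scaffold that ties integrins to the actin skeleton at focal adhesions. CACNA2D3 encodes an auxiliary alpha2delta subunit of voltage-gated calcium channels, which brings the pore to the cell surface. CYTIP encodes an adaptor of blood cells that binds cytohesins and loosens integrin-dependent adhesion. CMAHP is the human remnant of the gene for the hydroxylase that makes N-glycolylneuraminic acid in other mammals, and it is transcribed but makes no working enzyme. Demethylation and deacetylase inhibition are best known for raising silenced genes. A level that is lower after them runs the other way.

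7 probe sets stand for the 5 genes, and all had values on the 16 arrays. GAS1 (chr9:86944362-86947506 in RefSeq's GRCh38.p14) was read by 204457_s_at, with 204456_s_at as its second. TNS3 (chr7:47275154-47582586) was read by 217853_at, CACNA2D3 (chr3:54122552-55074557) by 219714_s_at and CYTIP (chr2:157414619-157444089) by 209606_at. CMAHP (chr6:25081067-25138392), annotated as a transcribed pseudogene, was read by 205518_s_at, with 210571_s_at as its second. Levels are compared within a probe set only.

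The labels were checked on 4 marker genes, of which TNFRSF8, LCK and CD3E separated the untreated cell types and ALK did not. TNFRSF8, which encodes CD30, the surface receptor that defines ALCL, lay between 11 and 12.05 in untreated ALCL lines and between 7.34 and 8.26 in untreated T-cell lines. ALK ran from 6.39 to 11.10 in untreated ALCL lines, among which FE-PD is known as an ALK-negative line, and from 6.09 to 6.40 in untreated T-cell lines. LCK, a kinase of T-cell receptor signalling, lay between 5.71 and 6.29 in untreated ALCL lines and between 10.70 and 12.12 in untreated T-cell lines. CD3E, a chain of the T-cell receptor complex, lay between 7.20 and 7.96 in untreated ALCL lines and between 10.57 and 10.91 in untreated T-cell lines. Of 9 ALCL markers, 4 fell (TNFRSF8, IL2RA, BATF3 and ALK) and 1 rose (TIMP1) on treatment in ALCL lines. Of all genes, 13.4% were called lower and 8.04% higher there. In T-cell lines 3 of the 9 rose on treatment and 0 fell. Of 11 T-cell markers, 8 fell and 0 rose on treatment in T-cell lines, where 20.2% of all genes were called lower and 21.7% higher. The mean level of this list ran from 7.51 to 7.92 in treated and from 9.23 to 9.89 in untreated T-cell lines. Of markers of other cells, 6 B-cell, 7 myeloid, 7 dendritic and 8 mesenchymal genes were measured. In ALCL lines 0 B-cell and 0 myeloid markers were called for treatment, while 2 dendritic markers and 1 mesenchymal marker rose and 0 fell. In T-cell lines 2 B-cell and 5 mesenchymal markers rose, 1 dendritic marker fell and 0 myeloid markers were called. The mean level of the mesenchymal list ran from 6.64 to 7.15 in treated and from 6.41 to 6.62 in untreated ALCL lines. That of the dendritic list ran from 6.51 to 7.22 in treated and from 6.10 to 7.36 in untreated ALCL lines. Their part in the results below was not tested. Without detection calls no marker can be said to be absent. A control for 28S ribosomal RNA was higher by 5.46 to 7.40 on the treated array of 5 lines, which were Molt-3 and Molt-4 and all ALCL lines but Karpas 299. It changed by -0.81 to 0.64 in Karpas 299, CCRF-CEM and Jurkat. Hybridisation spikes, RNAs added in fixed amount, were higher by up to 1.35 on treated arrays of 7 lines and differed by -0.35 in Jurkat. For ACTB, the signal at the 3' end less that at the 5' end, a sign of RNA quality, was higher by 0.38 to 1.13 on the treated array of 7 lines and differed by -0.09 in Karpas 299. The part of these controls in the results was not tested.

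Because the treatment acts on DNA methylation, which in promoters falls on CG dinucleotides, the sequence upstream of each start is shown with its CG count. RefSeq (GRCh38.p14) gave a promoter window for 4 of the 5 genes, and CMAHP had none in the table used. Each sequence below is the 250 bases before the annotated start, read 5' to 3' on the gene's strand, with every CG in capitals. TNS3 has 3 annotated starts, and the window with the most CG is shown.
GAS1, chr9:86947507-86947756, minus strand: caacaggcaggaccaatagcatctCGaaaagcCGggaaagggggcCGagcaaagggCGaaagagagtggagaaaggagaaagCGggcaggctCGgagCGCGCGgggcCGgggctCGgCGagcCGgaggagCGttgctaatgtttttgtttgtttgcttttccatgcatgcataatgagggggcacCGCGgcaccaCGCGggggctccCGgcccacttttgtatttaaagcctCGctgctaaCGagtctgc
TNS3, chr7:47582112-47582361, minus strand: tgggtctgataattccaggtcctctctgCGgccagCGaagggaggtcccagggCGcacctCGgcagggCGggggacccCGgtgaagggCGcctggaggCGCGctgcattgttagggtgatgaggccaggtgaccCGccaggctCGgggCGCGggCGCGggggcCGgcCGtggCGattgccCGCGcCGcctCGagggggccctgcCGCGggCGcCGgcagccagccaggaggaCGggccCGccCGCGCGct
CACNA2D3, chr3:54122302-54122551, plus strand: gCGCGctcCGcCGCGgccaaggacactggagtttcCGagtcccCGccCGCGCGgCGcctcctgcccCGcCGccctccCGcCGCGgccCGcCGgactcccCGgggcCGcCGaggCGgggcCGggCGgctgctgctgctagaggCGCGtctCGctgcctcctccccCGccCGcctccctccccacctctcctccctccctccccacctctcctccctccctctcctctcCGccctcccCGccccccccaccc
CYTIP, chr2:157444090-157444339, minus strand: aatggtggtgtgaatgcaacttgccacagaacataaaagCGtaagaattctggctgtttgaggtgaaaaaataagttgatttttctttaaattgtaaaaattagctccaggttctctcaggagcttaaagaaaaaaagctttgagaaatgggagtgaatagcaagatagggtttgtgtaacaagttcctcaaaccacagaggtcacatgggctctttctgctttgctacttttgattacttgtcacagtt

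The windows differed widely. CACNA2D3 and TNS3 held 31 CG each, GAS1 held 21 and CYTIP held 1, against a median of 11 over 35116 windows of this length. Fewer CG were found in 89.1% of all windows than in those of CACNA2D3 and TNS3, in 69.8% than in that of GAS1, and in 6.06% than in that of CYTIP. The other 2 TNS3 windows held 6 and 14 CG. The letters TTCNNNGAA (a STAT site) and TGANTCA (an AP-1 site) were in 0 of the 6 windows, and each is in 6.57% of all windows. CANNTG (an E-box) was found once in the CYTIP window and 1 to 3 times in those of TNS3, and it is in 61.8% of all windows. Each motif reads the same on both strands, and no E-box overlapped a CG. No methylation was measured here.

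GAS1 had the greatest untreated difference of the 5 genes. It stood at 7.51 in treated FE-PD, 6.80 in JB6, 7.60 in SU-DHL-1 and 10.54 in Karpas 299, against 10.39, 11.62, 11.90 and 11.97 in the same lines untreated. In T-cell lines it stood at 5.65, 6.24, 5.68 and 5.83 treated (here and below in the order CCRF-CEM and Jurkat, then Molt-3 and Molt-4), against 6.01, 6.15, 4.88 and 5.33 untreated. The level was lower after treatment in 4 of 4 ALCL lines, but treated Karpas 299 stayed above untreated FE-PD, so the 2 groups of ALCL arrays overlap. The mean was 8.11 ± 1.66 in treated and 11.47 ± 0.74 in untreated ALCL lines (SD, n = 4 each), a mean change of -3.36 ± 1.52 (SD over lines). It was 5.88 higher in untreated ALCL lines than in untreated T-cell lines, or 58.8-fold. The second probe set gave 4.26, or 19.1-fold, and the mean of both gave 33.5-fold. A lower level on an array cannot tell less RNA in every cell from fewer cells that hold it. Karpas 299 had the smallest change, at -1.43, and without it the mean change was -4.0, which is 16-fold lower in place of 10.3-fold. The second GAS1 probe set gave 4.94, 4.61, 5.01 and 7.35 in treated and 8.09, 8.70, 10.15 and 9.37 in untreated ALCL lines. It too was highest in Karpas 299 after treatment, and its changes ran from -5.13 to -2.02. Both probe sets read the same gene and are not independent.

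TNS3 had the smallest mean difference of the 5 between treated and untreated ALCL lines. It stood at 7.05 in treated FE-PD, 7.26 in JB6, 9.46 in SU-DHL-1 and 10.07 in Karpas 299, against 9.33, 10.32, 11.29 and 11.78 untreated. In T-cell lines it stood at 5.51, 5.43, 5.94 and 6.49 treated, against 5.82, 5.31, 4.97 and 5.52 untreated. Every ALCL array, treated or not, was above every T-cell array. The mean was 8.46 ± 1.53 in treated and 10.68 ± 1.09 in untreated ALCL lines (SD, n = 4 each). The change of -2.22 ± 0.61 (SD), a 4.65-fold lower signal, amounted to 42% of the log2 difference of 5.27 between the untreated cell types. The line order was the same before and after treatment, from FE-PD at the bottom to Karpas 299 at the top.

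CACNA2D3 differed most between ALCL lines before treatment and least after it. It stood at 4.92 in treated FE-PD, 5.53 in JB6, 5.45 in SU-DHL-1 and 5.40 in Karpas 299, against 6.81, 10.04, 9.22 and 8.63 untreated. In T-cell lines it stood at 5.17, 4.96, 5.28 and 5.29 treated, against 4.80, 4.68, 4.84 and 4.96 untreated. All 4 treated ALCL arrays lay below all 4 untreated ones and within 0.3 of a treated T-cell array. The SD over ALCL lines was 0.28 after treatment and 1.37 before it. The mean change was -3.35 ± 1.11 (SD, n = 4), or 10.2-fold lower, 86.9% of the log2 difference of 3.86 between untreated cell types. FE-PD, lowest before treatment, also had the smallest change (-1.89), and without it the untreated difference was 4.48, or 22.3-fold in place of 14.5-fold.

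CYTIP stood at 5.94 in treated FE-PD, 5.83 in JB6, 6.53 in SU-DHL-1 and 8.38 in Karpas 299, against 10.05, 9.38, 10.73 and 9.31 untreated. In T-cell lines it stood at 5.21, 5.14, 5.44 and 5.40 treated, against 5.75, 4.87, 4.90 and 4.75 untreated. The treated and untreated ALCL arrays did not overlap. The differences were -4.20 to -3.55 in FE-PD, JB6 and SU-DHL-1, and -0.93 in Karpas 299. The mean change of -3.20 ± 1.54 (SD, n = 4), or 9.17-fold lower, was -3.95, or 15.5-fold, without Karpas 299. The untreated difference between the cell types was 4.80, or 27.8-fold.

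CMAHP differs from the other 4 in the T-cell lines, which held it too. It stood at 5.97 in treated FE-PD, 5.72 in JB6, 6.33 in SU-DHL-1 and 7.01 in Karpas 299, against 10.22, 9.92, 9.96 and 10.56 untreated. In T-cell lines it stood at 5.44 in treated CCRF-CEM, 6.15 in Jurkat, 5.69 in Molt-3 and 5.92 in Molt-4, against 7.02, 9.66, 7.82 and 8.42 untreated. In both cell types all treated arrays lay below all untreated ones. Untreated Jurkat came within 0.3 of the lowest untreated ALCL line, and the untreated difference between the cell types was 1.94, or 3.83-fold. The ALCL change of -3.91 ± 0.37 (SD, n = 4), 15-fold lower, had the smallest spread over lines of the 5 genes and was the lowest of all 11963 genes in the probe set used. Its second probe set gave -3.31, above GAS1 and CACNA2D3. By line the second probe set differed by -3.68 to -2.89 in ALCL lines and by -2.81 to -0.76 in T-cell lines, with Jurkat again the lowest of the T-cell lines.

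**Figure D1:**
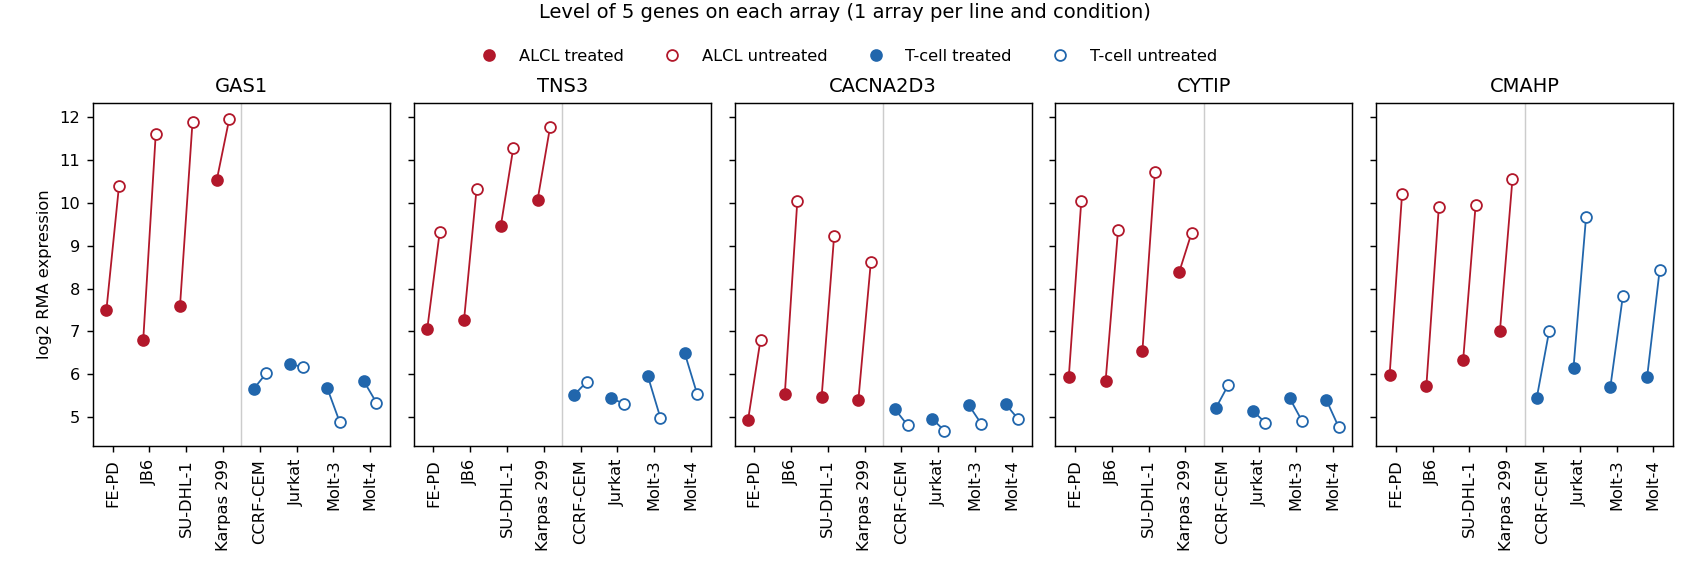
Level of each gene (log2 RMA value, vertical axis) on the treated array (filled) and the untreated array (open) of each line, ALCL lines in red and T-cell lines in blue, joined by line. Filled red points lie below open red points in every ALCL line, and in blue the filled points lie below the open ones in every line for CMAHP.

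Ordered by their means, the 4 groups ran differently in the 5 genes. Untreated ALCL lines came first in each. For GAS1, TNS3, CACNA2D3 and CYTIP the order went on with treated ALCL, treated T-cell and untreated T-cell lines, and the last 2 lay within 0.44 of each other. For CMAHP the second place went to untreated T-cell lines (8.23 ± 1.12), ahead of treated ALCL (6.26 ± 0.56) and treated T-cell lines (5.80 ± 0.30), whose values overlap. Treated ALCL minus untreated T-cell lines was 2.52 for GAS1, 3.06 for TNS3, 0.51 for CACNA2D3, 1.60 for CYTIP and -1.97 for CMAHP. Treated FE-PD (4.92) was below untreated Molt-4 (4.96) for CACNA2D3, so these 2 groups overlap for it.

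The limits around the chosen genes can be counted. An untreated difference of at least 2 together with an ALCL change of at most -2 was found in 13 genes, and GAS1, TNS3, CACNA2D3 and CYTIP are 4 of them. CMAHP missed the first limit with its 1.94. At limits of 1 and -1 there were 103 genes, all 5 included. The untreated ALCL arrays enter both values with opposite signs, so nothing is read from these counts. Across all genes, 3.18% were called higher and 5.58% lower in untreated ALCL lines than in untreated T-cell lines. For treatment in ALCL lines 13.4% were called lower and 8.04% higher. Calls here and below are limma tests with Benjamini-Hochberg adjusted p below 0.05. The rest of the 13 include TNFRSF8 (3.66 and -3.25), the cytokine gene IL26 (4.58 and -3.23) and IL2RA, the alpha chain of the interleukin-2 receptor (4.78 and -3.08).

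**Figure D2:**
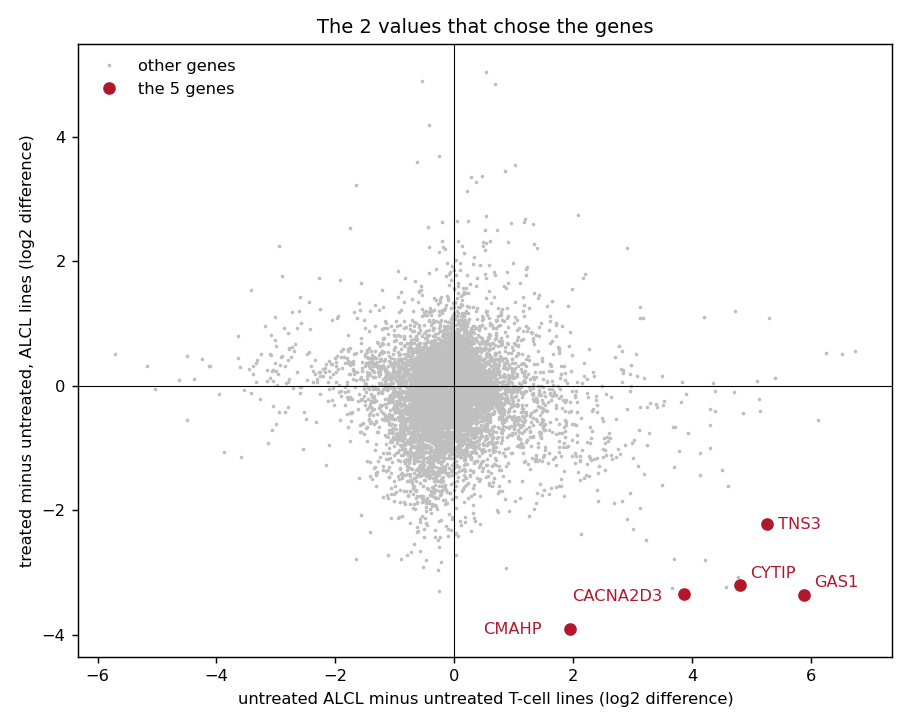
Each point is 1 of 11963 genes, with the untreated ALCL minus T-cell difference on the horizontal axis and the treated minus untreated difference in ALCL lines on the vertical axis, both log2. The 5 genes, in red, sit at the lower right because they were chosen there.

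How the treatment acted on these genes in T-cell lines was tested next, which the choice of genes did not use, although the untreated T-cell arrays stand in both. CMAHP fell and the other 4 were not called. CMAHP changed by -2.43 ± 0.27 (SE), a 5.38-fold fall seen in 4 of 4 lines (limma adjusted p = 0.000242, interval at 95% from -3.02 to -1.84). By line the changes were -1.58 in CCRF-CEM, -3.52 in Jurkat, -2.12 in Molt-3 and -2.50 in Molt-4. This is 1 of 5 genes called lower and 0 of 5 higher, against 20.2% and 21.7% of all genes, so the count itself says nothing particular about the 5. The call held in 20 of 20 alternative analyses (limma adjusted p up to 0.0406).

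For the other 4 the change in T-cell lines was small against its error. Their untreated T-cell levels were low, at percentiles 8.8 to 27.8 of the array for GAS1 and 9.8 to 21.4 for TNS3. They lay at percentiles 7 to 9 for CACNA2D3 and 7.3 to 20 for CYTIP, against 46.4 to 88.2 for CMAHP. Little room was thus left for a fall to be seen in these 4, while CMAHP had room. GAS1 differed by 0.26 ± 0.45 (SE, limma adjusted p = 0.651, 95% interval -0.75 to 1.26). TNS3 differed by 0.44 ± 0.26 (adjusted p = 0.192 by limma, -0.15 to 1.02). CYTIP differed by 0.23 ± 0.46 (adjusted p = 0.692 by limma, -0.79 to 1.25). Each of these 3 was lower in treated CCRF-CEM (-0.36, -0.31 and -0.54) and higher in the other 3 lines, by up to 0.97. CACNA2D3 was higher in 4 of 4 treated T-cell lines, by 0.28 to 0.44, and its mean change of 0.36 ± 0.32 was not called (limma adjusted p = 0.371, -0.35 to 1.07). The SE comes from a spread shared with the ALCL lines, where CACNA2D3 varied far more, and in a fit of the T-cell arrays alone the same change was called (adjusted p = 0.0337 by limma). Its size depended on the scaling. With arrays scaled to 1 SD it was 0.04 (adjusted p = 0.934 by limma), and after quantile normalization 0.18 (adjusted p = 0.712 by limma). The intervals leave room for rises of over 2-fold in these 4 genes, so a lack of change is not shown. Centring the arrays on the hybridisation spikes turned these 4 changes to between -0.45 and -0.24, while the median of all genes stood at -0.54 in place of 0.14. The share of calls that were higher was then 2.1% in place of 51.8%, and 36% with arrays centred on their median.

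The lines with the 28S rise stood apart in 3 of the genes. In Molt-3 and Molt-4, where the 28S control rose, the mean changes were 0.65 for GAS1, 0.97 for TNS3 (limma adjusted p = 0.0405) and 0.59 for CYTIP. In CCRF-CEM and Jurkat, where it did not, they were -0.14, -0.09 and -0.13. In ALCL lines the mean changes with the 28S rise were -4.0 for GAS1, -2.39 for TNS3 and -3.95 for CYTIP, and in Karpas 299, the only ALCL line without it, they were -1.43, -1.71 and -0.93. For CACNA2D3 the values were -3.39 with and -3.24 without it in ALCL lines, and 0.39 and 0.33 in T-cell lines. For CMAHP they were -4.03 and -3.55, and -2.31 and -2.55. In Karpas 299, with 1 array for each condition, all 5 genes were lower on the treated array. The part of the 28S signal in the sizes of the changes was not tested. With so few lines on each side, it cannot be told apart from other differences between the lines.

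**Figure D3:**
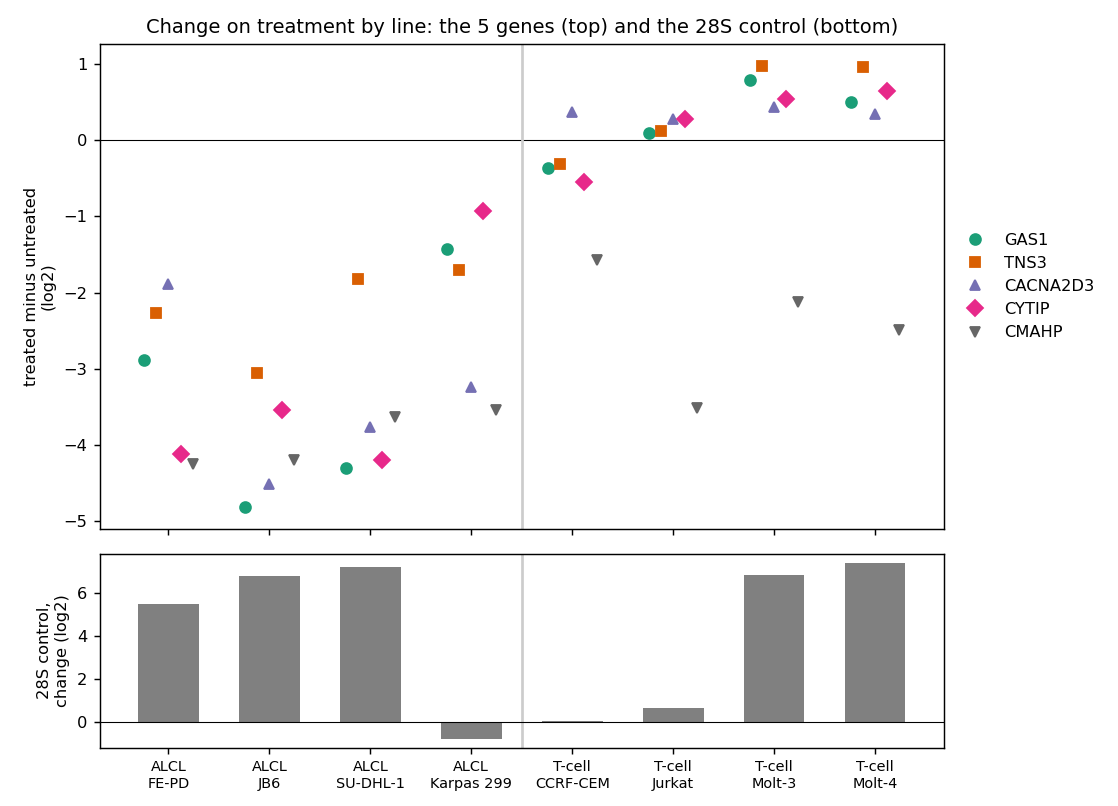
Treated minus untreated level (log2) of the 5 genes in each line (top, 1 symbol per gene) above the change of the 28S ribosomal RNA control in the same line (bottom, log2). All 5 genes lie below 0 in the 4 ALCL lines. Among these lines all but CACNA2D3 lie nearest to 0 in Karpas 299, narrowly so for TNS3 and CMAHP. The 28S control of Karpas 299 changed by -0.81.

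Treated ALCL lines were then set against treated T-cell lines, to see whether the genes still told the cell types apart. By limma 0 of the 5 were called (3 at an unadjusted p below 0.05), against 1.35% of all genes higher and 1.53% lower, and in 3 of the 5 (GAS1, TNS3 and CYTIP) all treated ALCL arrays lay above all treated T-cell arrays, as in 4.26% of all genes. This was not so in the second GAS1 probe set, where treated JB6 (4.61) lay among the treated T-cell lines (4.56 to 4.78). TNS3 was 2.62 ± 0.66 higher (SE, 6.14-fold, limma adjusted p = 0.0739, 95% interval 1.14 to 4.10). GAS1 was 2.26 ± 0.69 higher (4.80-fold, adjusted p = 0.13 by limma, 0.72 to 3.81) and CYTIP 1.37 ± 0.49 (2.59-fold, adjusted p = 0.2 by limma, 0.26 to 2.49). The difference of GAS1 was 0.82 (1.77-fold, adjusted p = 0.571 by limma) in its second probe set and 1.54 (2.91-fold, adjusted p = 0.239 by limma) over the mean of both. Without Karpas 299 that of CYTIP was 0.80 (1.74-fold, adjusted p = 0.11 by limma). In lines with the 28S rise the differences were 1.55 for GAS1, 1.71 for TNS3 and 0.68 for CYTIP, each over 1.5 times lower in fold and not called. These intervals are for 1 gene at a time and exclude 0, while the p adjusted over all genes does not pass. The calls depend on single lines and on the error model. TNS3 was called without FE-PD (3.09, adjusted p = 0.0354 by limma) and GAS1 without Karpas 299 (1.45, 2.74-fold, adjusted p = 0.0243 by limma). With the line as a random block across all 16 arrays both were called (adjusted p = 0.014 and 0.0468 by limma). CACNA2D3 differed by 0.15 ± 0.17 (adjusted p = 0.771 by limma, -0.24 to 0.54) and CMAHP by 0.46 ± 0.28 (adjusted p = 0.515 by limma, -0.18 to 1.09). Treated CACNA2D3 lay at percentiles 8 to 13.1 of the array in all 8 lines, and signal that low bounds no difference in expression. The treated ALCL arrays also stand in the change that chose the genes. The genes were chosen for a high level in the same lines untreated as well. The 3 of 5 beside 4.26% of all genes is therefore a description, and nothing is read from it.

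**Figure D4:**
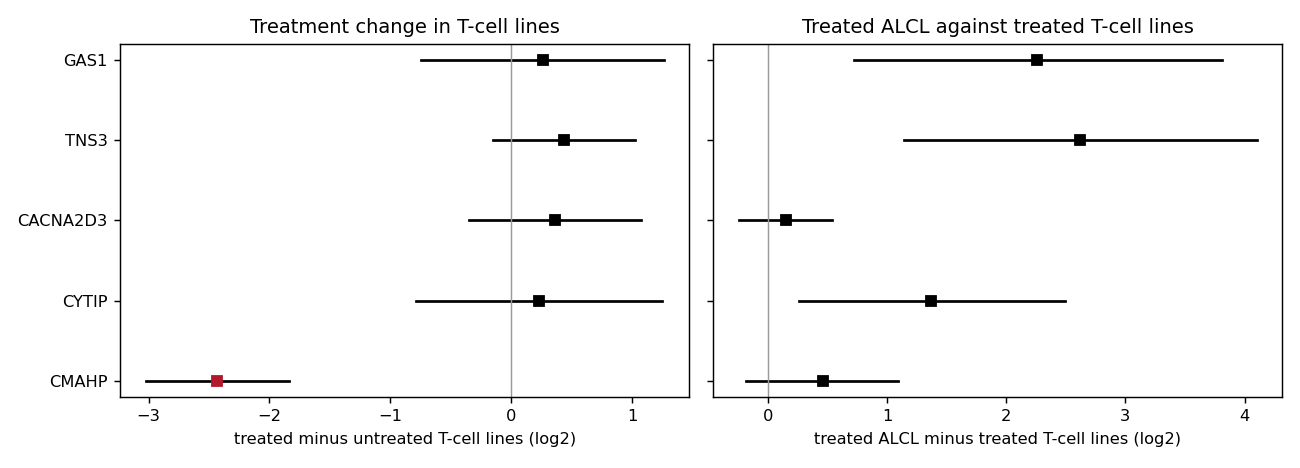
Squares are the log2 difference of each gene and bars its 95% interval from limma, for treated minus untreated T-cell lines (left) and treated ALCL minus treated T-cell lines (right). CMAHP on the left, in red, is the only one with an adjusted p below 0.05.

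The choice of the 5 genes used most of what shapes their profiles, so the following is a description. The genes whose profiles over the 16 arrays were nearest to each of the 5 were found by the root mean square (RMS) difference of values centred on each gene's own mean. For CYTIP these were IL2RA at 0.48, IL26 at 0.50 and TNFRSF8 at 0.66, where the SD of its own profile, about the distance to a flat gene, was 2.01. For GAS1 they were IL26 at 0.74, TNS3 at 0.75 and CYTIP at 0.77, with an SD of 2.50. TNS3 had IL2RB, the beta chain of the interleukin-2 receptor, at 0.68, IL26 at 0.73 and GAS1 at 0.75, with an SD of 2.29. IL26 was thus among the nearest 3 of GAS1, TNS3 and CYTIP. CACNA2D3 had SMPDL3A, a phosphodiesterase related to acid sphingomyelinase, at 0.53, then STX11, a syntaxin of cytotoxic granule release, at 0.81 and MOCOS, which activates molybdenum cofactor enzymes, at 0.85, with an SD of 1.67. Those of CMAHP were PTPRCAP, a partner of the phosphatase CD45, at 0.89, the mitochondrial ribosomal protein gene MRPL9 at 0.94 and the immunoproteasome subunit gene PSMB8 at 0.95, with an SD of 1.83. These 3 changed by -2.56, -2.58 and -3.31 in T-cell lines and by -2.33, -1.92 and -2.11 in ALCL lines, and differed by 0.18 to 0.31 between untreated cell types. Among the 5 genes themselves the RMS difference was smallest between GAS1 and TNS3 (0.75) and largest between TNS3 and CMAHP (2.01).

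Genes known to work with each of the 5 were read from 5 lists. For treatment in T-cell lines each list count below stands against 21.7% of all genes called higher and 20.2% lower. For treatment in ALCL lines the shares are 8.04% higher and 13.4% lower. In ALCL against T-cell lines they are 3.18% higher and 5.58% lower untreated, and 1.35% and 1.53% treated. The lists were not tested as sets. Of 14 measured genes of the Hedgehog pathway and the GDNF receptors, which are related to GAS1, 2 rose and 0 fell in treated ALCL lines (median 0.23, all genes 0.09). These were RET, the GDNF receptor kinase (0.66 ± 0.14 SE, limma adjusted p = 0.00889), and CDON, another Hedgehog co-receptor (0.49 ± 0.13, limma adjusted p = 0.0273). CDON lost its call in 6 of 19 alternatives, among them without FE-PD, JB6 or SU-DHL-1. In T-cell lines 6 rose and 0 fell, and between untreated cell types 0 of 14 were called (2 at an unadjusted p below 0.05, with differences from -1.14 to 2.25).

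Of 22 measured tensin and integrin adhesion genes, 3 rose and 1 fell in treated ALCL lines (median 0.22). VCL, which encodes vinculin, the link from talin to actin, averaged 9.44 ± 0.48 in treated and 7.97 ± 0.76 in untreated ALCL lines (SD, n = 4 each), a rise of 1.48 (limma adjusted p = 0.00144). Over the mean of the VCL probe sets the rise was 0.77, or 1.7-fold in place of 2.78-fold (adjusted p = 0.00582 by limma). ITGA6, the integrin alpha6 chain, rose by 1.35 ± 0.24 (SE, limma adjusted p = 0.00403). PARVB, which encodes the focal adhesion protein beta-parvin, went the same way as TNS3. It averaged 7.37 ± 0.28 in treated and 8.56 ± 0.64 in untreated ALCL lines (SD, n = 4 each), a fall of 2.27-fold in 4 of 4 lines (limma adjusted p = 0.00403), and was 4.32-fold higher in untreated ALCL than in untreated T-cell lines (limma adjusted p = 0.00568). Its T-cell change was 0.31 (limma adjusted p = 0.258). In T-cell lines 13 of the 22 rose and 2 fell. Between untreated cell types 3 were higher in ALCL lines and 0 lower, among them ACTN4, an actin cross-linker, by 1.95 ± 0.29 (SE, limma adjusted p = 0.00673).

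Of 20 measured subunits of voltage-gated calcium channels other than CACNA2D3, 1 rose and 0 fell in treated ALCL lines, and 5 rose and 0 fell in T-cell lines. The one in ALCL lines was CACNB3, a cytoplasmic beta subunit (0.51 ± 0.15 SE, limma adjusted p = 0.0384). It was not called in 10 of 19 alternatives, among them without JB6, SU-DHL-1, CCRF-CEM, Molt-3 or Molt-4. Under spike centring CDON and CACNB3 stood at -0.11 and -0.10, RET at 0.05 (adjusted p = 0.922 by limma), VCL at 0.87 (adjusted p = 0.158 by limma) and ITGA6 at 0.75 (adjusted p = 0.252 by limma), with 0 of these 5 called. The 20 ranged from -0.27 to 0.51 on treatment in ALCL lines, where CACNA2D3 stood at -3.35. No subunit was called between untreated or between treated cell types (0 of 20 each by limma, and 1 each at an unadjusted p below 0.05).

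Of 15 measured genes of cytohesins, ARF GTPases and LFA-1 adhesion, in which CYTIP acts, 1 rose and 2 fell in treated ALCL lines (median -0.04). ITGAL, the alpha chain of LFA-1, fell by 0.85 on the log2 scale (-0.85 ± 0.22 SE, limma adjusted p = 0.022), and ARF6, a GTPase of membrane traffic, changed by -0.49 ± 0.13 (limma adjusted p = 0.0235). ICAM1, the ligand of LFA-1, changed by 0.72 ± 0.22 (limma adjusted p = 0.0442), and this did not hold in 15 of 19 alternatives. ITGAL was not called in 6 of 18 alternatives, among them without JB6 or Karpas 299, and ARF6 in 9 of 19, among them without JB6 or SU-DHL-1. In T-cell lines 6 of the 15 fell and 1 rose. Between untreated cell types ITGB2, the beta chain of LFA-1, averaged 6.09 ± 0.71 in ALCL and 9.33 ± 0.34 in T-cell lines (SD, n = 4 each), a 9.50-fold lower level (limma adjusted p = 0.00143). ICAM1 was higher in ALCL lines by 1.32 ± 0.23 (SE, limma adjusted p = 0.0124).

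Of 22 measured genes of sialic acid synthesis and transfer, the pathway CMAHP once belonged to, 3 rose and 2 fell in treated ALCL lines (median 0.15), and 4 rose and 2 fell in T-cell lines. CMAS, which activates sialic acid to the CMP form the hydroxylase would use, averaged 5.32 ± 0.38 in treated and 6.36 ± 0.51 in untreated ALCL lines (SD, n = 4 each), a change of -1.04 (limma adjusted p = 0.00225), and changed by -1.07 in T-cell lines (limma adjusted p = 0.0012). GNE, the first enzyme of sialic acid synthesis, changed by -1.0 ± 0.16 (SE, limma adjusted p = 0.00266) in ALCL lines and stood at -0.30 in T-cell lines (limma adjusted p = 0.159). The difference between these GNE changes was not called (limma interaction adjusted p = 0.214). NEU1, the lysosomal sialidase, rose by 1.97 ± 0.24 in ALCL lines (limma adjusted p = 0.00067) and by 2.52 in T-cell lines (limma adjusted p = 0.000129). Between untreated cell types the sialyltransferase genes ST6GAL1 (-1.39 ± 0.29, limma adjusted p = 0.0254) and ST3GAL5 (-0.61 ± 0.16, limma adjusted p = 0.0497) were lower in ALCL lines, calls lost in 8 and 12 of 17 alternatives. Between treated cell types 0 of the 14 Hedgehog, 0 of the 20 channel and 0 of the 22 sialic acid genes were called by limma (0, 1 and 2 at an unadjusted p below 0.05), while 1 adhesion gene was lower and 1 cytohesin-list gene higher in ALCL lines.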

How the data were processed

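Expression was measured on 16 Affymetrix HG-U133A arrays. The authors deposited log2 expression values, and the submitters' processing notes name RMA and R 2.10.1. The sources used here do not say whether all arrays were normalized as 1 set. Deposited values ran from 3.36 to 14.4, with array medians of 6.78 to 6.96. No scanner file was analysed here, and 1 array per line and condition limits the precision.

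Of 22283 probe sets, 19065 had 1 gene symbol in the platform's annotation, 1043 several and 2107 none, and 68 were controls. Of the resulting 11963 genes, 11955 were found among RefSeq symbols. A gene with several was read from the one of highest mean (4310 genes had several, GAS1 and CMAHP 2 each). limma 3.58.1 (lmFit, eBayes) in R 4.3.3 was fitted to all genes, two-sided, with Benjamini-Hochberg adjustment over all of them. Treatment effects came from 1 fit of 16 arrays with the line as a block (6 residual degrees of freedom), and comparisons of cell types from 8 arrays each. Lines pair the arrays, as the labels name the same line untreated and treated. The deviations of a line's 2 arrays from their group means correlated at 0.314 to 0.632, but the untreated Molt-4 array correlated more with another line's treated array (0.383) than with its own (0.314). The fits were tested on simulated data.

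The 5 genes and the gene lists were chosen with earlier results of these data known. Genes outside the 5 are named by rule: the 3 nearest profiles of each, and in each list up to 3 called genes with the smallest adjusted p for treatment in ALCL lines and up to 2 between untreated cell types. ALK, TNFRSF8, CD3E and LCK were added as checks of the labels, and IL26 and IL2RA among the 13 genes were named after their values were seen. Alternatives were a fit without the block, a random block, 1 cell type alone, the mean of probe sets or the other probe set, removal of the lowest 40% of genes, 4 scalings, each line left out, and the lines with or without the 28S rise (over 3).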

Additional observations from a re-analysis of the deposited data

Results flagged for a closer look

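In the second GAS1 probe set the treated Karpas 299 array stood at 7.35, apart from the other 3 treated ALCL arrays, which lay between 4.61 and 5.01. For CYTIP the untreated CCRF-CEM array stood at 5.75, apart from the other 3 untreated T-cell arrays at 4.75 to 4.90. These were 2 of 42 groups of 4 values checked for a sample far from the others, and chance marks about 1 group in 20. CACNA2D3 was lower in each treated ALCL line and higher in each treated T-cell line, with a difference between the 2 mean changes of -3.71. That difference was not tested, because the gene was chosen on its change in ALCL lines. PARVB changed by -1.19 in ALCL lines and by 0.31 in T-cell lines, a difference of -1.49 (limma interaction adjusted p = 0.039). In Karpas 299, the only ALCL line without the 28S rise, its change was -0.59. The difference between the changes was also called for ITGB2 (limma interaction adjusted p = 0.000598) and ACTN4 (limma interaction adjusted p = 0.0126). These genes were named on arrays that also stand in this difference.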

How the results depend on the processing

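In T-cell lines the fall of CMAHP was called in 20 of 20 alternatives. The sign of GAS1, TNS3 and CYTIP there turned in 2 or 3 alternatives each, and that of CACNA2D3 only under spike centring, which moved all genes. With arrays centred on the hybridisation spikes they were -0.43 for GAS1, -0.24 for TNS3, -0.32 for CACNA2D3 and -0.45 for CYTIP, and the same scaling put CDON at -0.11 and CACNB3 at -0.10 in ALCL lines. That scaling moved the median of all genes to -0.52 for treatment in ALCL lines (0.09 as deposited), to 0.38 between untreated (0.04) and 0.39 between treated cell types (-0.03), and the share of calls that were higher to 3.57% (37.5%), 75% (36.3%) and 92.8% (47%). In lines without the 28S rise the T-cell changes were -0.14 for GAS1, -0.09 for TNS3 and -0.13 for CYTIP. With the rise TNS3 changed by 0.97 and was called. The other GAS1 probe set gave -0.16, and scaling to 1 SD gave CYTIP -0.07 and CACNA2D3 0.04. T-cell arrays alone with the replicate block gave CACNA2D3 0.36, called. In ALCL lines, the lines without the 28S rise, of which Karpas 299 is the only ALCL line, gave -1.43 for GAS1 and -0.93 for CYTIP, and CMAHP was -3.31 in its other probe set and -4.51 under spike centring. The untreated difference of GAS1 was 5.07 over the mean of its probe sets and 4.26 in the other one, and in lines without the 28S rise TNS3 was at 6.21 and CYTIP at 4.0. Between treated cell types, the line as a random replicate block (correlation 0.335) left GAS1 at 2.26 and TNS3 at 2.62, both then called. TNS3 was also called, at 2.62, without the lowest 40% of genes. Spike centring gave 2.68 for GAS1, 3.04 for TNS3 and 1.79 for CYTIP, and lines without the 28S rise gave 4.60, 4.60 and 3.21. They pass the threshold with 1 ALCL array against 2 T-cell arrays, the lone array being assumed to vary like the others, so nothing rests on them. Lines with the rise gave 1.55, 1.71 and 0.68, not called, and the other GAS1 probe set gave 0.82. Leaving out 1 line gave 1.45 to 2.70 for GAS1 and 2.08 to 3.09 for TNS3. Counts of called genes moved too. For treatment in ALCL lines, 2566 were called, against 1440 with no replicate block, 1432 without JB6, 1526 without SU-DHL-1 and 6 in lines without the 28S rise. For T-cell lines 5018 were called, against 3006 under spike centring, 2520 without Molt-3, 2572 without Molt-4 and 1496 in lines without the 28S rise. Between untreated cell types 1048 were called, against 455 without Molt-3, 476 without Molt-4, 689 in lines with and 111 in lines without the 28S rise. Between treated cell types 345 were called, against 585 with the random block, 203 without CCRF-CEM, 130 without Molt-3, 217 without Molt-4, 98 in lines with and 152 in lines without the rise. The 18 results for genes of the lists had 328 alternatives, of which 248 left the call as it was, 78 ended it and 2 turned the sign. Alternatives with fewer lines have fewer degrees of freedom. Other causes were not tested. With 1 array for each line and condition, technical and biological spread cannot be told apart.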
